A study of Mus musculus with 28 samples.

Results

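Ciita and 8 genes of the MHC class II pathway were followed across 28 expression arrays of mouse peritoneal resident macrophages. The members were the class II transactivator gene Ciita, the invariant chain gene Cd74, the class II chain genes H2-Aa, H2-Ab1, H2-Eb1 and H2-Eb2, and the peptide-editing genes H2-Oa, H2-Ob and H2-DMa. Each was taken from the probe set that carries only that symbol, and a gene with several would be read from the brightest on average. All 9 have 1 such probe set, and all 9 lay above background, so 9 of the 13526 genes tested (19938 genes have a probe set of their own) are described.

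The arrays fall into 7 groups of 4 independent experiments. WT were uninjected wild-type mice and ATF7KO uninjected mice lacking ATF7, both on the C57BL/6 background. PBS, LPS, PGN, IMQ and BG were wild-type C57BL/6-background mice given an intravenous injection of phosphate-buffered saline, lipopolysaccharide from E. coli O111:B4, PGN, imiquimod or β-glucan at an age of 7 to 8 weeks. Their cells were taken 3 to 4 weeks later, when the mice were 10 to 12 weeks old. For the uninjected mice no age is stated in these sources. All cells were washed from the peritoneal cavity without thioglycollate, kept overnight in serum-free medium and rinsed to take off cells that had not adhered, such as lymphocytes. No cell type was sorted, and whether 1 array holds the cells of 1 mouse or of several is unknown here. The uninjected knockout has no knockout counterpart with an injection.

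MHC class II molecules are heterodimers that display peptides from endocytosed proteins to CD4+ T cells. The A molecule is built from the products of H2-Aa and H2-Ab1, and H2-Eb1 encodes the β chain of the E molecule. The invariant chain, encoded by Cd74, holds the peptide groove closed until cathepsins degrade it in late endosomes. The editor H2-DM then exchanges the last fragment for antigenic peptides, and H2-O, a heterodimer of the H2-Oa and H2-Ob products found mainly in B cells, holds H2-DM back. Ciita does not bind DNA itself; it is recruited to class II promoters by the RFX, CREB and NF-Y factors that sit on the conserved X and Y boxes. B cells and dendritic cells express Ciita constitutively, whereas macrophages raise it in response to interferon-γ, from a separate promoter.

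The promoters of the class II genes are shown because they carry the letters to which those factors bind. The promoter of Cd74 was left out of this search. In the RefSeq promoter table for GRCm38.p6, 6 of the other members matched an entry, while Ciita and H2-Ab1 had none. There were 7 entries in all, since H2-DMa has 2. The stretches below read 5′ to 3′ on the strand of the gene, each 61 bases long and ending before the annotated start. Capitals mark GCAAC (core letters of the X box), ATTGG (the Y box core CCAAT on the opposite strand) and, in H2-Aa, the full CRE site TGACGTCA.
H2-Aa: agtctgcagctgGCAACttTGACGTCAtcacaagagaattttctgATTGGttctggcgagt
H2-Eb1: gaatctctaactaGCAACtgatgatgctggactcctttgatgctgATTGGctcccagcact
H2-Oa: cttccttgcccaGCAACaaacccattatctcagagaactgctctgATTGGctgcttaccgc
H2-Ob: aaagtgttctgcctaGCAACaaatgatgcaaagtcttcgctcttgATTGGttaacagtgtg
They lie at chr17:34287856-34287916 (H2-Aa, minus strand), chr17:34305763-34305823 (H2-Eb1, plus strand), chr17:34092291-34092351 (H2-Oa, plus strand) and chr17:34238803-34238863 (H2-Ob, plus strand). The stretch of H2-Aa runs from 93 to 33 bases before its start, that of H2-Eb1 from 104 to 44, that of H2-Oa from 88 to 28 and that of H2-Ob from 102 to 42. From the first letter of GCAAC to the first letter of ATTGG there were 33 bases in H2-Aa, 32 in H2-Eb1, 33 in H2-Oa and 30 in H2-Ob. The H2-Eb2 entry holds the same pair at positions -132 and -100 from its start, 32 bases apart, inside the annotated span of the gene.

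Both strands of the 250 bases before each start were searched. CCAAT was found in 6 of the 7 member entries and in 33.8% of all 32851 promoter entries, GCAAC in 6 of 7 and 29.9%, GATG in 7 of 7 and 77.4%, TGACG in 1 of 7 and 17.8%, and TGACGTCA in 1 of 7 and 1.55%. In H2-Aa the TGACG matches on both strands are the 2 ends of the TGACGTCA site, and a GATG match on the opposite strand overlaps it. The ordered pair, GCAAC followed after 30 to 33 bases by ATTGG on either strand, was present in 5 of 7 member entries and in 57 of all entries (0.174%). The letters GCAAC and that spacing were chosen after the member promoters had been read, so these counts describe the sequences only. The other 2 entries, both of H2-DMa, lack the pair. The 7 H2 members lie within chr17:34092379-34341410, and Ciita lies at chr16:10480014-10531064 (GRCm38.p6).

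Signals are log2 values of the deposited array intensities, and the background floor was 6.32 on that scale. Since each probe set has its own response, levels are compared between groups and never between genes. Differences were tested with limma across all 13526 genes, with Benjamini-Hochberg adjustment within each comparison, and called at an adjusted p under 0.05. The exact permutation test of 4 against 4 arrays cannot give a p below 0.0286. Array medians were alike, at 107 to 115 in linear signal, and replicates of a group correlated at 0.985 to 0.996 over all probe sets. Atf7 read 7.08 ± 0.10 in ATF7KO against 9.97 ± 0.11 in WT (mean ± SD, n = 4) by one probe set, and by the other it was 1.36-fold lower (limma adjusted p = 8.48e-08). A probe set without a gene, noticed after its values were seen, read 10.81 to 11.02 on the 8 PGN and IMQ arrays and 11.29 to 11.60 on the other 20 arrays. Its part in the results was not tested, and no array dates were at hand.

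Macrophage markers such as Csf1r and Cd68 were present throughout, with a mean log2 signal over 7 genes of 11.38 to 11.69 per array. Other cells had left RNA in the same samples. Of 22 listed B cell markers, 20 have a probe set of their own and 17 were above background. The mean log2 signal of these 17 was 8.48 ± 0.31 in WT, 7.63 ± 0.23 in ATF7KO, 8.40 ± 0.19 in PBS, 8.36 ± 0.08 in LPS, 8.46 ± 0.19 in PGN, 8.62 ± 0.12 in IMQ and 8.05 ± 0.07 in BG. It ranged from 7.39 to 7.93 in ATF7KO and from 7.97 to 8.12 in BG, while the lowest array of the other groups, WT replicate 2, read 8.04. In bulk samples fewer cells of a type and less RNA per cell cannot be told apart. Among defining dendritic cell markers, Zbtb46 read 6.93 to 7.40 over all arrays, Flt3 lay around the floor in every group (6.24 to 6.43 as group means), and Cd209a ranged from 6.41 in ATF7KO to 8.12 in PBS as group means.

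**Figure D1:**
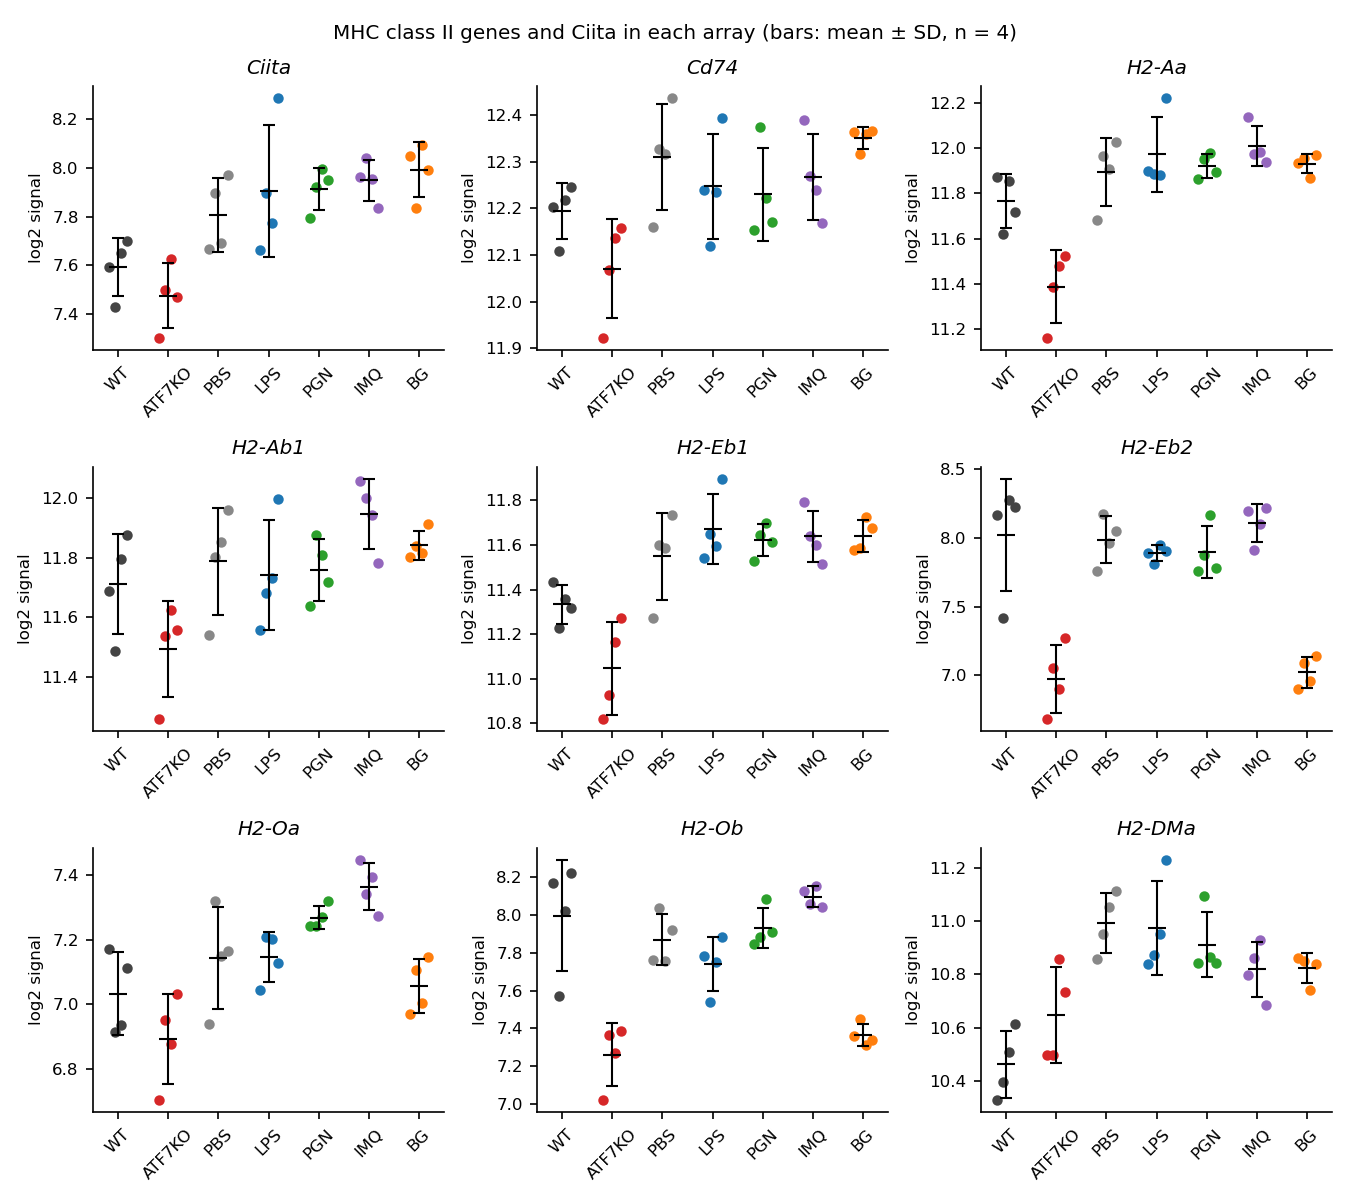
Each panel plots 1 gene, with the log2 array signal on the vertical axis and the 7 groups on the horizontal axis. Points are single arrays and the black bars give the mean ± SD (n = 4). H2-Eb2 and H2-Ob stand lower in ATF7KO and BG than in the other groups, H2-Aa stands lowest in ATF7KO, and Ciita, Cd74 and H2-Ab1 overlap between ATF7KO and WT.

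Loss of ATF7 without injection was accompanied by lower H2-Eb2, H2-Ob, H2-Aa and H2-Eb1, while Ciita did not pass the test. Of the 9 members 4 were called lower and 0 higher, against 28.3% of all genes tested, 10.7% lower and 17.6% higher. The median log2 change of the members was -0.22, beside 0.01 for all genes. The size of the change differed widely among the called members, from 1.22-fold to 2.07-fold.

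H2-Eb2, which encodes a further E β chain, had the largest change. Its log2 signals were 8.17, 7.41, 8.28 and 8.23 in the WT arrays. In ATF7KO they were 6.68, 7.05, 6.90 and 7.27. The groups did not overlap, although WT replicate 2 lay well below the other 3 WT arrays. The means were 8.02 ± 0.41 and 6.97 ± 0.25 (SD, n = 4), a log2 change of -1.05 with a 95% interval of -1.33 to -0.76 and a 2.07-fold lower signal (by limma, adjusted p = 2.5e-06; by exact permutation, p = 0.0286). Groups of 4 that do not overlap were found for 21.9% of all genes in this comparison.

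H2-Ob, the β chain of the H2-DM inhibitor, followed the same pattern. It read 8.17, 7.57, 8.02 and 8.22 in WT and 7.02, 7.36, 7.27 and 7.39 in ATF7KO. Again WT replicate 2 was the lowest of its group and the groups did not overlap. The log2 change was -0.73 with a 95% interval of -0.94 to -0.52, a 1.66-fold lower signal (by limma, adjusted p = 4.98e-06; by exact permutation, p = 0.0286). Its partner H2-Oa, the α chain, read 7.03 ± 0.13 in WT and 6.89 ± 0.14 in ATF7KO, a log2 change of -0.14 that did not pass (limma adjusted p = 0.166).

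Among the genes of the A molecule, H2-Aa (α chain) read 11.87, 11.62, 11.86 and 11.72 in WT and 11.16, 11.38, 11.48 and 11.52 in ATF7KO. Every ATF7KO array was below every WT array, with a narrow gap. The signal was 1.30-fold lower (log2 change -0.38, 95% interval -0.54 to -0.22; by limma, adjusted p = 0.000546; by exact permutation, p = 0.0286). H2-Ab1, the β chain of the same heterodimer, overlapped between the groups at 11.49 to 11.87 in WT and 11.26 to 11.62 in ATF7KO. Its log2 change of -0.22 (95% interval -0.41 to -0.03) did not pass (limma adjusted p = 0.0813), and it passed without WT replicate 2 (-0.29, adjusted p = 0.0249).

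H2-Eb1 was at the edge of the threshold. It read 11.44, 11.23, 11.36 and 11.32 in WT and 10.82, 10.93, 11.17 and 11.27 in ATF7KO. The 2 groups overlapped, since ATF7KO replicate 4 lay above WT replicate 2. The log2 change was -0.29 (1.22-fold lower; by limma, adjusted p = 0.017; by exact permutation, p = 0.0571). The call was lost without ATF7KO replicate 1 (adjusted p = 0.0929), without ATF7KO replicate 2 (0.0701), without WT replicate 1 (0.0616), and after median centring of the arrays (0.0515).

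The transactivator itself read 7.59, 7.43, 7.65 and 7.70 in WT and 7.30, 7.50, 7.63 and 7.47 in ATF7KO. These values overlap over most of their range. The log2 change of Ciita was -0.12 with a 95% interval of -0.32 to 0.08 (limma adjusted p = 0.406). Cd74 was similarly close, with 12.19 ± 0.06 in WT and 12.07 ± 0.11 in ATF7KO (log2 change -0.12, adjusted p = 0.14). H2-DMa, the α chain of the peptide editor, had the opposite sign, at 10.46 ± 0.12 in WT and 10.65 ± 0.18 in ATF7KO (log2 change 0.18, adjusted p = 0.11; 0.24 and 0.0389 with arrays centred on their medians).

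Markers of B cells moved with these genes. Of the 17 B cell markers above background 15 were called lower in ATF7KO and 0 higher, with a median log2 change of -0.94. Cd79a, a chain of the B cell receptor complex, went from 10.03 ± 0.38 in WT to 8.82 ± 0.52 (limma adjusted p = 1.02e-05). Ms4a1, which encodes CD20, was 2.36-fold lower (5.88e-05), and Pax5, the transcription factor of B cell identity, 1.57-fold lower (6.85e-05). Of 8 dendritic cell markers above background 3 fell and 0 rose, among them Cd209a by 0.84 on the log2 scale (0.00341), while Flt3 (log2 change 0.00) and Zbtb46 (0.05) did not pass. Of 13 markers of large peritoneal macrophages 7 fell and 2 rose in the same comparison. Only 2 of 5 eosinophil markers were above background, with a mean of 7.53 ± 0.24 in WT and 6.89 ± 0.19 in ATF7KO; of these Il5ra, named after its values were seen, fell by 1.18 on the log2 scale (limma adjusted p = 5.95e-05) and Siglecf changed by -0.09 (0.355). The part of these cells in the members' changes was not tested.

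With the mean signal of the B cell markers added to the model as a covariate, 0 of the 9 members were called in ATF7KO. The log2 change of H2-Eb2 became -0.24 (limma adjusted p = 0.349), that of H2-Ob -0.20 (0.369), that of H2-Aa -0.14 (0.56) and that of H2-Eb1 -0.09 (0.792). With the mean of the dendritic cell markers instead, again 0 were called, with log2 changes of -0.55 for H2-Eb2 (0.124), -0.42 for H2-Ob (0.126), -0.10 for H2-Aa (0.705) and 0.02 for H2-Eb1 (0.956). The calls over all genes dropped too, from 3828 to 1175 and 652. Both marker means differ between the genotypes, and the cause of the drop was not tested. The part of B cell or dendritic cell RNA and the part of the genotype in these changes cannot be told apart by such a fit.

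**Figure D2:**
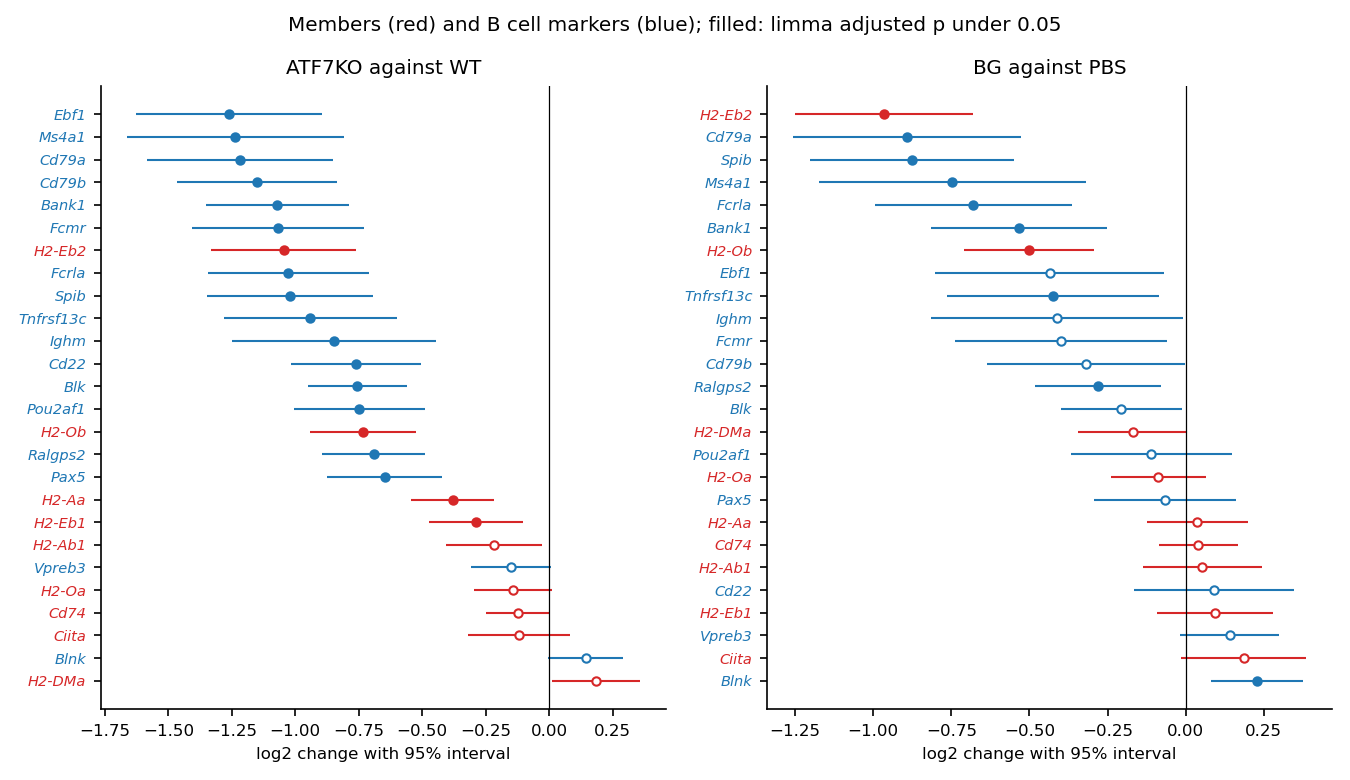
Log2 changes with 95% intervals are drawn on the horizontal axis for ATF7KO against WT and for BG against PBS, with genes on the vertical axis sorted by change. Red marks the 9 members and blue the 17 B cell markers, and filled points passed limma at an adjusted p under 0.05. The range of the B cell markers is wide and reaches above 0 in both panels. In ATF7KO every member but H2-DMa lies within it, and after BG every member but H2-Eb2. After BG H2-Eb2 (-0.97) lies below the lowest marker (Cd79a, -0.89). In both panels Cd74, H2-Ab1 and Ciita lie closer to 0 than H2-Eb2 and H2-Ob.

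Genes that act around class II were read from 6 lists with 35 measured genes, of which 17 were called in ATF7KO (48.6%), beside 28.3% of all genes. In ATF7KO, 6 of 7 genes of endosomal processing and invariant chain cleavage rose and 0 fell. The signal peptidase-like protease gene Sppl2a, which removes the membrane stub of the invariant chain, rose by 0.36 on the log2 scale (11.03 ± 0.08 to 11.38 ± 0.09, limma adjusted p = 1.48e-05). The cathepsin genes Ctsb and Ctsd rose by 0.18 (0.000182) and 0.16 (0.00459), and Ifi30, a thiol reductase of the endosome, by 0.19 (0.00429). Co-stimulation genes gave 1 call of 4, Cd40, 1.49-fold higher (9.70 ± 0.10 to 10.27 ± 0.23, 0.000112).

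Of the 7 genes of the class II promoter complex 3 rose in ATF7KO, and they were the 3 subunits of NF-Y, the factor that binds the Y box. Nfya rose by 0.26 on the log2 scale (limma adjusted p = 0.000768), Nfyb by 0.25 (0.0195) and Nfyc by 0.12 (0.0455). The RFX subunit genes Rfx5, Rfxap and Rfxank and Creb1 did not pass. Among 7 measured genes that carry interferon-γ signals to Ciita, 3 rose and 1 fell. Irf1, the activator of the inducible Ciita promoter, rose by 0.45 (0.00805), Jak1 by 0.14 (0.00231) and Ifngr2 by 0.09 (0.0465), while Irf2 fell by 0.18 (0.00463). Of 7 transcription factor genes of Ciita promoters, Mitf rose by 0.37 (5.01e-06), Irf8 by 0.17 (0.00922) and Prdm1, a repressor of Ciita, by 0.30 (0.0299). The class II turnover genes Marchf1, Marchf8 and Cd9 gave 0 calls, at an unadjusted p under 0.05 also 0.

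β-Glucan was the only injected agent after which members were called against PBS. H2-Eb2 and H2-Ob fell, and the other 7 members did not pass, against 41.6% of all genes called in that comparison, 21.4% lower and 20.2% higher. The median log2 change of the members was 0.04, beside 0.02 over all genes.

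H2-Eb2 read 7.76, 8.17, 7.97 and 8.05 after PBS and 6.90, 7.09, 6.96 and 7.14 after BG. The BG arrays were tightly grouped and all lay below the PBS arrays, a separation seen for 40.7% of all genes. The signal was 1.95-fold lower (log2 change -0.97, 95% interval -1.25 to -0.68, limma adjusted p = 4.15e-06, exact permutation p = 0.0286). H2-Ob read 7.76, 8.03, 7.75 and 7.92 after PBS and 7.36, 7.45, 7.32 and 7.34 after BG. It too was separated without overlap, 1.42-fold lower (log2 change -0.50, 95% interval -0.71 to -0.29, limma adjusted p = 0.000314, exact permutation p = 0.0286).

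None of the remaining members passed after BG in the limma fit over all groups. Cd74 read 12.31 ± 0.11 after PBS and 12.35 ± 0.02 after BG, with a log2 change of 0.04 and a 95% interval of -0.08 to 0.17. H2-Aa changed by 0.04 (interval -0.12 to 0.20), H2-Ab1 by 0.05 (-0.14 to 0.24) and H2-Eb1 by 0.09 (-0.09 to 0.28). Ciita read 7.67, 7.90, 7.69 and 7.97 after PBS and 8.05, 7.83, 8.09 and 7.99 after BG. Its groups overlapped and the log2 change of 0.19 (interval -0.02 to 0.39) did not pass (limma adjusted p = 0.13). H2-Oa changed by -0.09 (0.361) and H2-DMa by -0.17 (0.109), which passed with only the BG and PBS arrays fitted (adjusted p = 0.0294).

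B cell markers were lower after BG as well, but less uniformly. Of 17 markers 7 fell and 1 rose, with a median log2 change of -0.40. Cd79a fell by 0.89 on the log2 scale (limma adjusted p = 0.000262) and Ms4a1 by 0.75 (0.00548), whereas Pax5 changed by -0.07 (0.653). The single marker that rose was Blnk (0.23, adjusted p = 0.0125), named after its values were seen. Dendritic cell markers gave 2 higher and 2 lower of 8, with Zbtb46 up by 0.19 (0.0138) and Cd209a down to 6.81 ± 0.21 from 8.12 ± 0.43 (2.08e-05). Large peritoneal macrophage markers fell in 9 of 13 cases and rose in 1.

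Both calls were kept, at smaller size, when B cell marker signal entered the model. H2-Eb2 then changed by -0.64 (limma adjusted p = 1.89e-05) and H2-Ob by -0.28 (0.0102). With the dendritic cell markers as a covariate H2-Eb2 changed by -0.60 (0.0124), H2-Ob did not pass (-0.27, 0.124), and H2-Eb1 passed in the opposite direction (0.32, 0.0379). The part of B cell and dendritic cell RNA in the BG changes was not tested beyond these fits.

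**Figure D3:**
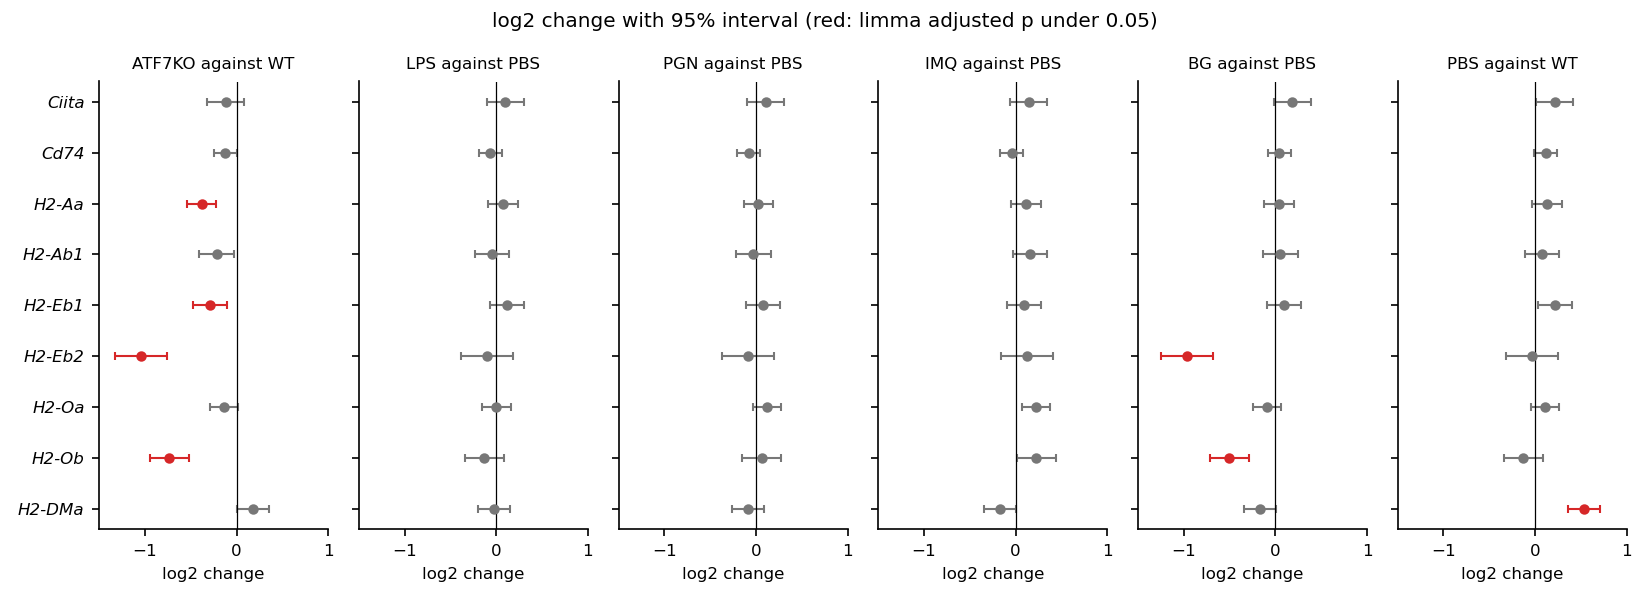
The 6 panels give, for each comparison, the log2 change of the 9 members on the horizontal axis with its 95% interval, and red marks an adjusted p under 0.05. H2-Eb2 and H2-Ob are red in ATF7KO against WT and in BG against PBS, H2-Aa and H2-Eb1 in ATF7KO against WT, and H2-DMa in PBS against WT.

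The effects of the knockout and of BG, which share no arrays, were set against each other in the same model. The difference between them passed for H2-Aa (-0.42 on the log2 scale, 95% interval -0.65 to -0.19, limma adjusted p = 0.00629), for H2-Eb1 (-0.38, 0.0261) and for H2-DMa (0.35, 0.028). For H2-Eb2 and H2-Ob, lower in both comparisons, the difference did not pass. Over all genes 29.2% passed in this contrast. Set against the LPS effect, the knockout effect differed for H2-Aa, H2-Eb1, H2-Eb2 and H2-Ob, by -0.46 (0.00383), -0.41 (0.0185), -0.95 (0.00102) and -0.60 (0.00335), where 29.3% of all genes passed.

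Of the 35 accessory genes 19 were called after BG (54.3%), beside 41.6% of all genes. Of the 7 genes of the class II promoter complex 4 fell and 0 rose: Rfxank by 0.27 on the log2 scale (limma adjusted p = 5.12e-05), Rfx5 by 0.29 (0.00407), Nfyc by 0.14 (0.0171) and Nfya by 0.13 (0.0487). Of 4 co-stimulation genes 3 fell and 1 rose. The T cell co-stimulators Cd80 and Cd86 fell by 0.29 (0.000168) and 0.32 (0.00396) and Cd83 by 0.43 (0.000623), while Cd40 rose by 0.46 (0.000752). Among transcription factors of Ciita promoters 3 of 7 rose and 2 fell, with Usf2 up by 0.31 (4.08e-05), Irf4 up by 0.38 (0.00385), Irf8 down to 10.11 ± 0.08 from 10.38 ± 0.05 (7.36e-05) and Spi1 down to 11.65 ± 0.06 from 11.78 ± 0.04 (0.0251). Irf4 is also among the markers of monocyte-derived peritoneal macrophages, of which 3 of 6 rose and 1 fell. Of the interferon-γ list, Socs1, a feedback inhibitor, rose by 0.32 (0.000732), and Irf2 and Ifngr1 fell by 0.25 (0.000125) and 0.16 (0.00853). In processing, Ctsb fell by 0.09 (0.0269) and Sppl2a by 0.14 (0.0325), and the tetraspanin gene Cd9 of the turnover list rose by 0.26 (0.0458).

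After LPS, PGN and IMQ none of the 9 members was called in the limma fit, against 9.91% of all genes after LPS (4.39% higher, 5.52% lower), 3.9% after PGN (2.09% higher, 1.81% lower) and 5.69% after IMQ (3.09% higher, 2.6% lower). Groups that do not overlap were found for 17.9% of all genes after LPS and 11.2% after PGN, and for 0 members in both. At an unadjusted p under 0.05 the counts were 0, 0 and 2. The median log2 changes of the members were -0.02, 0.03 and 0.12, beside -0.01, 0.02 and 0.02 for all genes. The 4 injected agents were compared with the same 4 PBS arrays, so that an unusual PBS array enters all of these values.

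Ciita after LPS read 7.66, 7.90, 7.77 and 8.29, with replicate 4 well above the rest. Its log2 change of 0.10 (95% interval -0.10 to 0.30) turned to -0.03 without that array. After PGN it read 7.79 to 7.99 and after IMQ 7.84 to 8.04, with log2 changes of 0.11 (-0.09 to 0.31) and 0.14 (-0.06 to 0.34). For Cd74 the 3 log2 changes were -0.06, -0.08 and -0.04, and their 95% intervals lay between -0.21 and 0.08. The intervals of H2-Aa, H2-Ab1 and H2-Eb1 in these comparisons lay between -0.24 and 0.35.

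IMQ came closest to a call, in the genes of the H2-O heterodimer. H2-Ob read 8.13, 8.06, 8.15 and 8.04 after IMQ, all above the PBS arrays (highest 8.03). The log2 change was 0.23 (95% interval 0.02 to 0.44, limma adjusted p = 0.196, exact permutation p = 0.0286), and such separation occurred for 15.2% of all genes. H2-Oa read 7.45, 7.34, 7.40 and 7.27 after IMQ against 6.94, 7.32, 7.15 and 7.16 after PBS, with overlap through PBS replicate 2. Its log2 change of 0.22 (limma adjusted p = 0.079) passed without PBS replicate 2 (0.28, adjusted p = 0.028) and with the dendritic cell covariate (0.26, 0.0351). With the B cell covariate neither gene passed, at 0.16 for H2-Oa (limma adjusted p = 0.252) and 0.09 for H2-Ob (0.59). In the same arrays 2 of 17 B cell markers rose and 0 fell, with a median log2 change of 0.25.

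Compared directly, the ligands separated at the same genes. H2-Eb2 was lower after BG than after IMQ (log2 difference -1.08, 95% interval -1.37 to -0.80, limma adjusted p = 9.36e-07), than after PGN (-0.87, 2.1e-05) and than after LPS, where LPS minus BG was 0.87 (2.25e-05). H2-Ob was lower after BG than after IMQ (-0.73, 3.33e-06) and PGN (-0.56, 0.000108), and LPS minus BG was 0.37 (0.00537). H2-Oa followed with smaller differences, at -0.31 for BG minus IMQ (0.00196) and -0.21 for BG minus PGN (0.0304). H2-Ob and H2-Oa were also higher after IMQ than after LPS, by 0.36 (0.0166) and 0.22 (0.0406). Over all genes 36.7% were called between BG and IMQ, 31.8% between BG and PGN, 34.9% between LPS and BG and 19.2% between IMQ and LPS. Between PGN and LPS 12.1% of all genes were called, and between IMQ and PGN 0 of 13526, members included. Of the other 6 members, none was called between any 2 ligands in the limma fit. The mean B cell marker signal of these groups was 8.62 in IMQ, 8.46 in PGN, 8.36 in LPS and 8.05 in BG. Its part in the differences between ligands was not tested.

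Of the 35 accessory genes 6 were called after LPS (17.1%), 0 after PGN and 4 after IMQ (11.4%), beside 9.91%, 3.9% and 5.69% of all genes. Cd40 rose after LPS by 0.34 on the log2 scale (limma adjusted p = 0.0379) and after IMQ by 0.44 (0.00933). The cathepsin genes Ctsd and Ctsb fell after LPS by 0.15 (0.0287) and 0.12 (0.032), and Ctsd after IMQ by 0.20 (0.00496). After LPS Irf1 and Socs1 rose by 0.51 (0.0211) and 0.25 (0.0301) and Ifngr1 fell by 0.16 (0.0367). Irf4 rose after IMQ by 0.50 (0.00316), where Marchf8, a ubiquitin ligase, fell by 0.20 (0.0192). After PGN none of these lists had a called gene in the limma fit, with 1 or 2 genes per list at an unadjusted p under 0.05. The class II promoter complex had 0 calls of 7 after each of these 3 ligands, and at an unadjusted p under 0.05 it had 1, 1 and 0. The calls after LPS rest on a comparison whose count over all genes dropped from 1341 to 4 without LPS replicate 2 and to 184 without PBS replicate 3.

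PBS-injected and uninjected wild-type mice differed at H2-DMa. It read 10.33, 10.40, 10.51 and 10.61 in WT and 10.86, 10.95, 11.05 and 11.11 after PBS. Every PBS array lay above every WT array, a pattern found for 22.8% of all genes. The signal was 1.44-fold higher after PBS (log2 change 0.53, 95% interval 0.36 to 0.70, limma adjusted p = 8.64e-05, exact permutation p = 0.0286), and 32.7% of all genes were called, 19.7% higher and 13% lower. The WT arrays here are those of the knockout comparison. The log2 changes of Ciita (0.21, adjusted p = 0.0933), H2-Eb1 (0.21, 0.0674) and Cd74 (0.12, 0.14) did not pass, but each did with arrays centred on their medians, at 0.26 (0.0396), 0.27 (0.0264) and 0.17 (0.045). Leaving out PBS replicate 1, the lowest of its group for Ciita, Cd74, H2-Aa, H2-Ab1 and H2-Eb1, also brought H2-Eb1 (0.31, adjusted p = 0.0107) and Cd74 (0.17, 0.0437) past the threshold. Without WT replicate 2, H2-Ob passed as lower after PBS (-0.27, 0.0283). Of the 35 accessory genes 8 were called (22.9%), a smaller share than the 32.7% of all genes. Lgmn, an asparaginyl endopeptidase gene, rose by 0.37 (0.00309), Ctsd by 0.13 (0.0236), Nfya by 0.21 (0.00486), Rfxap by 0.21 (0.0329), Irf8 by 0.20 (0.00404), Prdm1 by 0.29 (0.0329), Ifngr1 by 0.14 (0.0251) and Cd9 by 0.29 (0.0355). The injection, the age of the mice and the day of the experiment cannot be told apart in this comparison.

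Ordered by group mean, Ciita ran from 7.99 in BG through 7.95 in IMQ, 7.91 in PGN, 7.90 in LPS, 7.81 in PBS and 7.59 in WT to 7.48 in ATF7KO. No step between neighbours passed in the limma fit (lowest adjusted p = 0.0933, from PBS to WT), while the 0.52 between the extremes did (0.00016). Cd74 spanned 0.28 from BG to ATF7KO (0.000737) and H2-Ab1 0.45 from IMQ to ATF7KO (0.000358), likewise with no step between neighbours that passed. For H2-Aa the only step that passed was the last, from 11.77 in WT to 11.39 in ATF7KO, and for H2-Eb1 also the last, from 11.33 to 11.05. H2-Eb2 and H2-Ob fell into an upper set of 5 groups (7.89 to 8.11 and 7.74 to 8.09) and a lower set of BG and ATF7KO (7.02 and 6.97, 7.37 and 7.26). The step from LPS to BG separated these sets for both genes, and BG and ATF7KO did not pass against each other (adjusted p = 0.838 and 0.47). H2-DMa had its own order, with PBS highest (10.99) and WT lowest (10.46). The extremes were picked from the values themselves, so that their tests describe the span only.

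**Figure D4:**
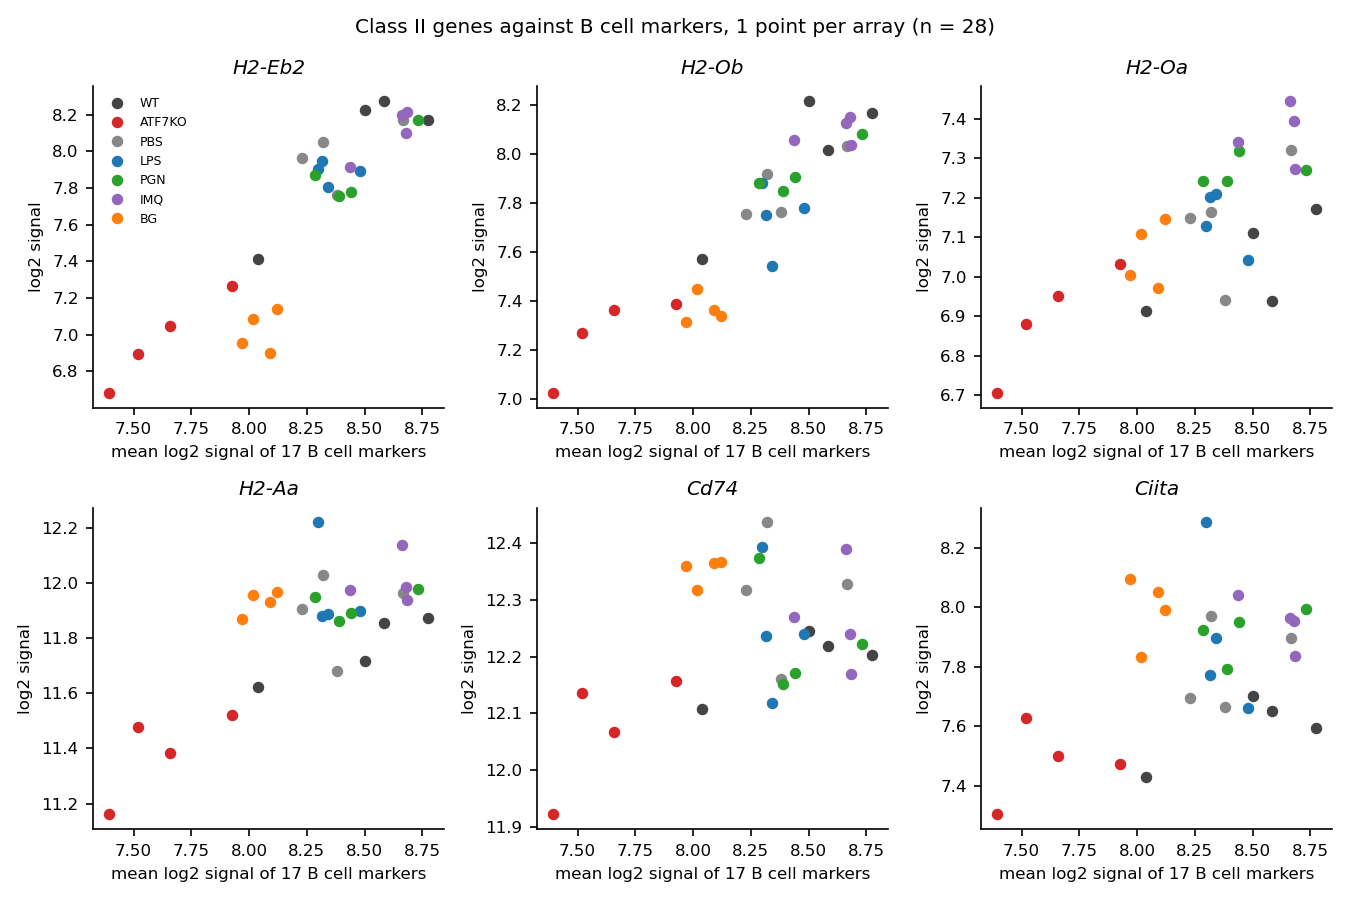
Each point is 1 of the 28 arrays, coloured by group, with the mean log2 signal of the 17 B cell markers on the horizontal axis and the log2 signal of 1 member on the vertical axis. H2-Eb2 and H2-Ob rise along the axis, with the BG arrays low for their marker level. For Cd74 and Ciita most BG arrays lie among the highest and the ATF7KO arrays among the lowest. The exception for Ciita is BG replicate 2 (7.83), near the middle of the arrays.

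Variation between arrays of the same group was examined by subtracting each group's mean, which leaves the genotype and the injection out. The replicate number was not taken out, and its part in the correlations within groups was not tested. Over the 28 arrays, H2-Eb2 and B cell marker deviations correlated with Pearson's r = 0.82 (permutation p = 0.00044, adjusted over 36 tests 0.0131) and Spearman's rho = 0.75 (permutation p = 0.00051, adjusted 0.00918). For H2-Ob, r was 0.75 (permutation p = 0.00096, adjusted 0.0131) and rho 0.61 (0.0035, adjusted 0.021). Without the 2 arrays farthest from the median, WT replicate 2 and ATF7KO replicate 4, r was 0.62 for H2-Eb2 and 0.55 for H2-Ob. H2-Oa (r = 0.53, rho = 0.43, adjusted permutation p = 0.0802 and 0.142) and H2-Aa (r = 0.43, rho = 0.35, 0.136 and 0.222) did not pass. For Ciita, Cd74 and H2-Ab1 r was 0.16, 0.18 and 0.18, with rho of 0.01, 0.13 and 0.01 (adjusted permutation p from 0.471 to 0.964).

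Those members and H2-DMa, whose r with the B cell markers was -0.13, varied with markers of monocyte-derived peritoneal macrophages. Of 8 listed genes, such as Ccr2, Retnla and Clec10a, 7 were measured and 6 were above background. Within groups r was 0.63 for H2-Ab1 (rho 0.62), 0.57 for Cd74 (0.58), 0.51 for H2-DMa (0.56) and 0.47 for Ciita (0.62), with adjusted permutation p of 0.0131, 0.0248, 0.0248 and 0.0131 for r and 0.0197, 0.0197, 0.021 and 0.00918 for rho. Without PBS replicate 1 and IMQ replicate 4 the 4 r values were 0.46, 0.38, 0.38 and 0.39. For H2-Eb2, H2-Oa, H2-Ob, H2-Aa and H2-Eb1 r with this list was 0.27, 0.31, 0.33, 0.34 and 0.44. None of these passed (lowest adjusted permutation p = 0.0868 for r and 0.0839 for rho). Without the same arrays they were 0.34, -0.07, 0.30, 0.08 and 0.14. No difference in r between members was tested. With the large peritoneal macrophage markers r was negative for all 9 members, from -0.60 for H2-Ab1 to -0.21 for H2-Ob, and none passed by r (lowest adjusted permutation p = 0.0522), while H2-Ab1 passed by rho (-0.57, 0.0434). No correlation with the dendritic cell markers passed (lowest adjusted permutation p = 0.0648).

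The members were also set against each other in the same deviations. H2-Aa and H2-Eb1 correlated within groups with r = 0.89 and Cd74 and H2-Ab1 with 0.86. The other pairs among Cd74, H2-Aa, H2-Ab1 and H2-Eb1 gave 0.80 to 0.83. For H2-Eb2 and H2-Ob r was 0.84, and H2-Ab1 gave 0.79 with both Ciita and H2-DMa. Ciita and H2-Eb2 gave 0.32 and H2-Oa and H2-DMa 0.20. These values are descriptions over 28 arrays that share normalisation and cell content. Among all other genes tested, the profile most like the mean of Cd74, H2-Aa, H2-Ab1 and H2-Eb1 over the 28 arrays was that of Lsp1, a leukocyte actin-binding protein gene (r = 0.89, and 0.77 within groups). Sh2d1b1 (0.87), Ptpn22 (0.86), 1700025G04Rik (0.85), Pstpip1 (0.83), Gm2a, Galt and Plcb2 (0.82 each) came next. The genes most like Ciita were Mbnl1 (0.85), Nectin1 (0.84), Dhrs9 (0.83), Sdf2 (0.83) and Crip1 (0.82), and of these Dhrs9 was also first within groups (r = 0.82).

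Of the class II genes outside the member list, H2-Ea read 4.80 to 5.31 over all arrays, under the floor of 6.32. C57BL/6 mice carry the H-2b haplotype, whose H2-Ea promoter is deleted, and the annotation lists the gene as a transcribed pseudogene. The partner chains of H2-DMa are not analysed here, because their probe set carries more than 1 symbol.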

How the data were processed

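RNA of 28 samples was amplified from 100 ng of total RNA and hybridised to Affymetrix arrays. The deposited values are linear intensities, 1 per probe set, which the authors made with RMA in Affymetrix Expression Console, per the submitters' processing notes. No software version or genome build was found in these sources. Their log2 was taken without further normalisation.

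Of 35556 probe sets, 21789 carry 1 symbol in the platform annotation, 1621 several and 12146 none. Probe sets above the floor (95th percentile of the means of 1205 odorant and vomeronasal receptor probe sets) in at least 4 arrays were kept, and the highest-mean probe set stood for a gene. limma 3.58.1 (R 4.3.3) fitted 1 mean per group to all 28 arrays, with an intensity trend. Correlations were tested with 100000 permutations within groups, two-sided, in numpy 2.4.6 with ranks from scipy 1.17.1. The exact permutation test, also two-sided, went through every split of the arrays of 2 groups into 4 against 4. The fitting step was tested on simulated data.

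Members and lists were chosen with earlier results of these data known. Named genes are the members, up to 4 called genes with the smallest p per pathway list and comparison, defining B cell and dendritic cell markers, Atf7, and the 8 and 5 genes most like the class II mean and Ciita. Alternatives covered the filter, scaling, samples fitted, variance trend, probe set choice, replicate block, marker covariates and leaving out each array. Replicates are independent experiments per the labels, and 4 arrays per group limit the precision.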

Additional observations from a re-analysis of the deposited data

Results flagged for a closer look

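Within the 63 sets of 4 replicates (9 members in 7 groups), 4 held an array that stood apart from its 3 neighbours, where chance marks about 1 set in 20. They were Cd74 in BG replicate 2 (12.32, below its group), H2-Aa in LPS replicate 4 (12.22, above), H2-Eb2 in WT replicate 2 (7.41, below) and H2-DMa in PGN replicate 2 (11.09, above). The mean of the B cell markers in WT replicate 2 was 8.04, the lowest of its group.

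Between contrasts, 17 of 72 differences in effect passed in the limma fit. The share of all genes called ran from 0% between IMQ and PGN to 36.7% between BG and IMQ. It was 34.9% between LPS and BG, 31.8% between BG and PGN and 19.2% between IMQ and LPS. The knockout effect minus the LPS effect was -0.46 on the log2 scale for H2-Aa (adjusted p = 0.00383), -0.41 for H2-Eb1 (0.0185), -0.95 for H2-Eb2 (0.00102) and -0.60 for H2-Ob (0.00335), and 29.3% of all genes were called in that contrast. Against the BG effect it was -0.42 for H2-Aa, -0.38 for H2-Eb1 and 0.35 for H2-DMa, with 29.2% of all genes called. Among ligands, H2-Eb2 differed by 0.87 for LPS minus BG, -0.87 for BG minus PGN and -1.08 for BG minus IMQ. H2-Ob differed by 0.37 for LPS minus BG, 0.36 for IMQ minus LPS, -0.56 for BG minus PGN and -0.73 for BG minus IMQ. H2-Oa differed by 0.22 for IMQ minus LPS, -0.21 for BG minus PGN and -0.31 for BG minus IMQ.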

How the results depend on the processing

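Of 972 alternative values for 54 pairs of member and comparison, 913 kept direction and side of the threshold, 12 lost a call, 13 gained one and 34 changed sign. None of the 34 was called under its alternative in limma, and 1 belonged to a called result, H2-Eb1 in ATF7KO. By group mean H2-Oa lies nearest the floor of 6.32, at 6.89 to 7.36. H2-Eb2 also comes near it in its lower groups, with means of 6.97 in ATF7KO and 7.02 in BG. Its lowest array, in ATF7KO, read 6.68. Causes of the changes below were not tested.

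Genes called in ATF7KO numbered 1175 with the B cell covariate, 652 with the dendritic cell covariate and 2409 with only the 2 groups fitted, and members called 0 with either covariate. For LPS the genes called numbered 862 after quantile normalisation, 511 with 2 groups and 4 to 1564 leaving out 1 array: 4 without LPS replicate 2, 601 without LPS replicate 1, and 855, 184 and 445 without PBS replicates 2, 3 and 4. For PGN they were 272 with 2 groups and 283 to 484 leaving out 1 array (340, 311 and 283 without PGN replicates 1, 3 and 4, 336 and 339 without PBS replicates 3 and 4), and for IMQ 478 with the B cell covariate and 400 to 758 leaving out 1 array (400, 478 and 449 without IMQ replicates 1, 2 and 3, 474 and 424 without PBS replicates 3 and 4). For BG they were 3598 with the dendritic cell covariate, and for PBS against WT 2068 with 2 groups and 2755 to 5316 leaving out 1 array (2790 and 2755 without WT replicates 1 and 2). Members called after IMQ numbered 1 with the dendritic cell covariate and 0 to 1 leaving out 1 array. In PBS against WT they numbered 4 after median centring, 2 with the B cell covariate and 1 to 3 leaving out 1 array.

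Signs changed as follows, as log2 changes. With the B cell covariate, H2-Oa was 0.11 in ATF7KO and 0.018 after BG, and H2-Eb2 was -0.086 after IMQ and 0.038 in PBS against WT. With the dendritic cell covariate, H2-Eb1 was 0.024 in ATF7KO, and H2-Oa was 0.046 in ATF7KO and 0.051 after BG. Median centring gave H2-Oa -0.029 after LPS and H2-Eb2 0.018 in PBS against WT. Quantile normalisation gave H2-Oa -0.0016 and H2-DMa 0.022 after LPS, and H2-Aa -0.0088 after PGN. Leaving out 1 array gave, after LPS, -0.029 to 0.18 for Ciita, -0.0066 to 0.12 for H2-Aa, -0.13 to 0.016 for H2-Ab1, -0.065 to 0.062 for H2-Oa and -0.11 to 0.024 for H2-DMa. After PGN it gave -0.045 to 0.071 for H2-Aa, -0.11 to 0.029 for H2-Ab1 and -0.019 to 0.14 for H2-Eb1, and after IMQ -0.0024 to 0.15 for H2-Eb1. After BG it gave -0.0089 to 0.083 for Cd74, -0.035 to 0.081 for H2-Aa and -0.029 to 0.11 for H2-Ab1, and in PBS against WT -0.24 to 0.051 for H2-Eb2.

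The labels do not say that replicate numbers pair the arrays. H2-DMa rose in the order of the replicate numbers in WT, PBS and LPS, but not in ATF7KO, PGN, IMQ or BG. Same-numbered arrays thus shared some of their deviations, though not all. With the replicate number as a block, members called stayed at 4, 0, 0, 0, 2 and 1 in ATF7KO, LPS, PGN, IMQ, BG and PBS against WT, and genes called were 3844, 1453, 508, 764, 5671 and 4424.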
